A study of Homo sapiens with 5 samples.

Results

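Described here are 36 genes of the unfolded protein response and the integrated stress response, taken by name from a list and all present among the 33538 genes counted. They were read by role in 3 groups. The first holds 14 chaperones and folding enzymes of the endoplasmic reticulum (ER), the second 8 genes of ER-associated degradation and of the stress sensors, and the third 14 genes of the ATF4 branch. The cells were MDA-MB-468, an established human line of triple-negative breast cancer, that is, a tumour without oestrogen, progesterone and amplified HER2 receptors. There were 5 samples with 1 sample in each group, stained with 1 hashtag antibody each, pooled and read together as a single 3'-tag library. HA FOSL1 was set against HA control, and the guide samples gRNA2 and gRNA3 of the VPR system were both set against VPR control. FOSL1 codes for FRA-1, one of the proteins that pair up as AP-1, and the series title places the work in the study of drug-tolerant persister cells. The labels call the samples gain-of-function, do not spell out HA or VPR, and name fluorouracil in their treatment text without the samples it was given to. All 5 samples share the cell line, the pool and the library run, and no sample is a repeat of another, so differences between single samples carry counting intervals only.

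Proteins that fold in the ER are watched by 3 sensors. ATF6, IRE1 (gene ERN1) and PERK (gene EIF2AK3) are held inactive by the chaperone BiP (gene HSPA5) and act when unfolded protein accumulates. Cleaved ATF6 and the spliced form of XBP1, made by IRE1, switch on chaperones and the degradation machinery, whereas PERK phosphorylates the initiation factor eIF2 and so favours translation of ATF4. ATF4 is also reached by kinases that sense amino acid shortage or viral RNA, and it drives genes of amino acid supply as well as DDIT3, which encodes the factor CHOP. RNA levels report only part of this, because sensor activation, XBP1 splicing and ATF4 translation are not read by 3' tags.

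The number of cells kept was 1826 in HA FOSL1 and 3380 in HA control, and 2542 in gRNA2, 4299 in gRNA3 and 2595 in VPR control. Total counts of unique molecular identifiers (UMIs) ranged from 42058533 to 85556699 a sample. Median UMIs per cell were 20768.5 in HA FOSL1 against 15401.5 in HA control, and 17414.5 in gRNA2 and 18121 in gRNA3 against 15810 in VPR control. The median share of mitochondrial UMIs was 9.80% in HA FOSL1 against 11.5% in HA control, and 10.6% in gRNA2 and 10.5% in gRNA3 against 11.3% in VPR control, so both depth and this share moved with FOSL1. Levels are given as CPM, a gene's UMIs divided by all UMIs of the sample on one common scale. FOSL1 itself was at 63.5 CPM in HA FOSL1 against 8.96 CPM in HA control, and at 100.5 CPM in gRNA2 and 94.3 CPM in gRNA3 against 8.91 CPM in VPR control. The epithelial markers EPCAM, KRT7, KRT8, KRT18, KRT19 and EGFR were all present and all 6 higher in the 3 FOSL1 samples, with sums of 13210.0 CPM in HA FOSL1 against 7870.0 CPM in HA control, and of 10320.0 CPM in gRNA2 and 10050.0 CPM in gRNA3 against 8512 CPM in VPR control. The progesterone receptor gene PGR had 0 UMIs in all 5 samples. The 5 immune markers summed to 4.47 CPM in HA FOSL1 against 0.859 CPM in HA control, and to 1.62 CPM in gRNA2 and 2.65 CPM in gRNA3 against 0.759 CPM in VPR control. Of these, CD68 and PTPRC were higher in all 3 FOSL1 samples, CD3E was at most 0.0117 CPM, and the fibroblast marker DCN was at 0. The part of depth, mitochondrial share and these markers in the results was not tested, apart from the depth and mitochondrial settings named with them.

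The stress genes moved little. Of the 36, 27 reached a mean of 20 CPM over the 5 samples and were counted. At 1.5-fold either way 0 of these 27 members differed in HA FOSL1 against HA control, where 7.64% of all 5747 genes at that level did. The count was also 0 with gRNA2 (1.67% of all genes), with gRNA3 (1.91%) and between VPR control and HA control (0.261%). At a smaller size, 25% higher or 20% lower on the CPM + 1 scale, 1 member was higher in the HA arm (13.2% of all genes) and 2 were lower (9.2%). With gRNA2 0 were higher (3.24%) and 3 lower (2.4%), and with gRNA3 0 were higher (3.38%) and 2 lower (3.1%). Between the controls 0 members were higher (0.713%) and 0 lower (0.679%). The median size of the log2 ratio of CPM + 1, taken without its sign, was 0.10 for the members and 0.16 for all genes in the HA arm. It was 0.066 for the members and 0.070 for all genes with gRNA2, and 0.082 for the members and 0.080 for all genes with gRNA3. No test was made of these medians.

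**Figure D1:**
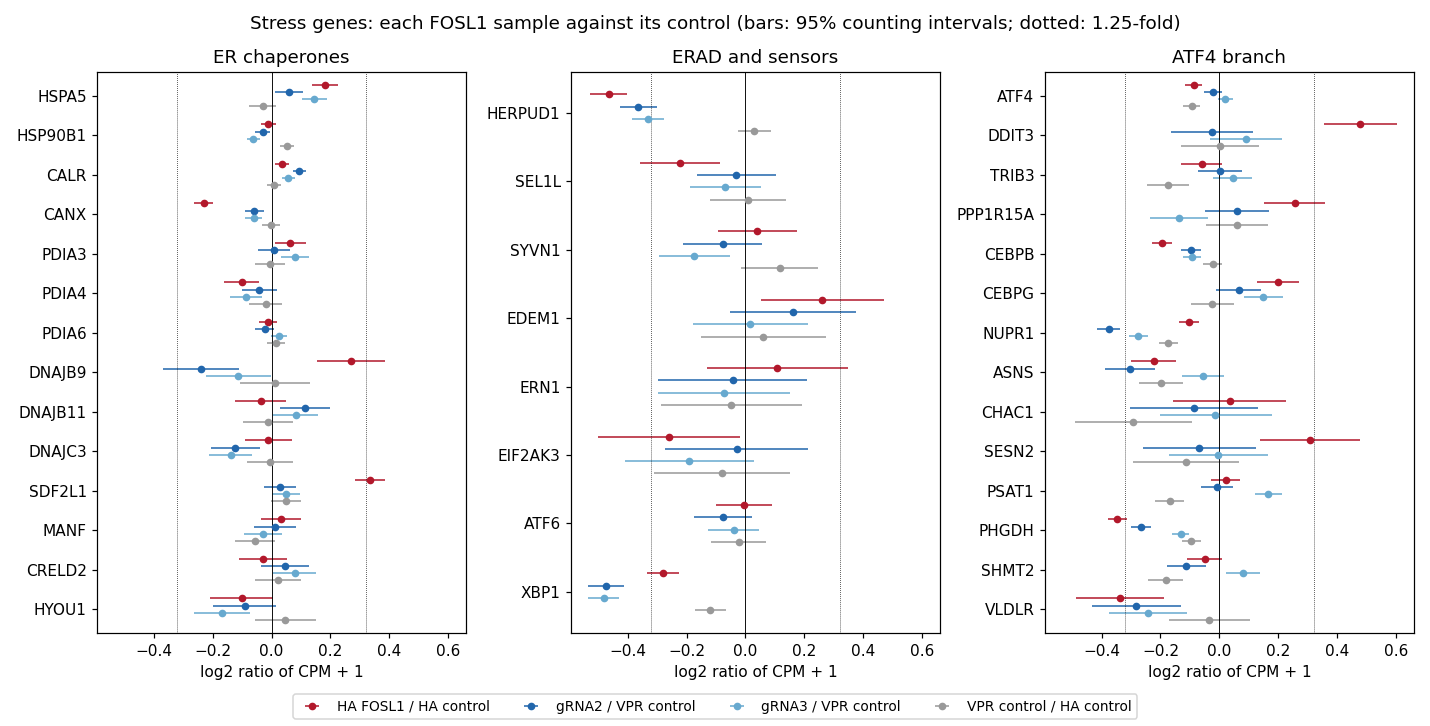
Log2 ratio of CPM + 1 (horizontal axis) of each of the 36 genes in HA FOSL1 over HA control, gRNA2 and gRNA3 over VPR control, and VPR control over HA control, in 3 panels by role. Points are single samples over single samples, bars are 95% intervals of counting error, and dotted lines mark a value 25% higher or 20% lower. HERPUD1 lies left of its dotted line in all 3 FOSL1 arms at -0.46, -0.36 and -0.33, and XBP1 does so with both guides.

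The samples can also be read without folds. All 3 FOSL1 samples were lower than both controls for 9 of the 27 members, where 22.5% of all genes were so arranged, and higher than both for 5 of the 27, where 28.3% of all genes were. The 9 were CANX, PDIA4, DNAJC3, HYOU1, HERPUD1, XBP1, CEBPB, ASNS and PHGDH, and the 5 were HSPA5, CALR, PDIA3, SDF2L1 and CEBPG. Chaperones stood on both sides, 4 lower and 4 higher, while the degradation and sensor genes of the 27 stood on the lower side only, 2 of 3.

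The ER chaperones as a group were level across the 5 samples. Their summed level was 2623 CPM in HA FOSL1 against 2614 CPM in HA control, and 2653 CPM in gRNA2 and 2648 CPM in gRNA3 against 2639 CPM in VPR control. The log2 ratios of these sums were 0.00 for HA, 0.01 for gRNA2 and 0.00 for gRNA3, with counting intervals of -0.01 to 0.02, -0.00 to 0.02 and -0.01 to 0.02. Of the 14 genes, 6 lay above and 8 below the control in the HA arm, and 7 above and 7 below with either guide. The even sum thus hid members on both sides.

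**Figure D2:**
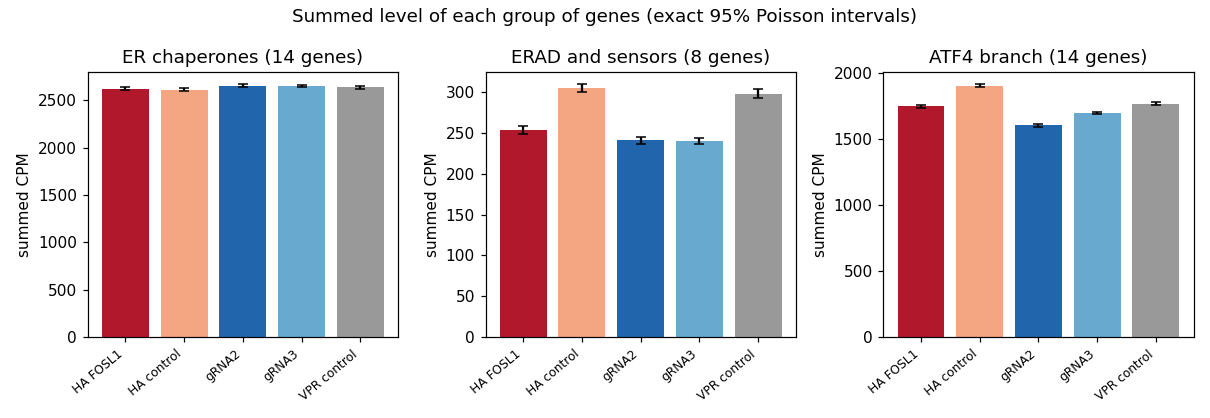
Summed level in CPM (vertical axes, starting at 0) of the 14 ER chaperones, the 8 genes of ER-associated degradation and sensors, and the 14 ATF4-branch genes in each of the 5 samples, with 95% exact Poisson intervals for counting error. The chaperones lie between 2614 and 2653 CPM, and the second group is lower in all 3 FOSL1 samples than in both controls.

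HSPA5 encodes BiP, the Hsp70 chaperone of the ER and the usual readout of the unfolded protein response. It was at 167 CPM in HA FOSL1 against 147 CPM in HA control, and at 150.1 CPM in gRNA2 and 159 CPM in gRNA3 against 144 CPM in VPR control. All 3 FOSL1 samples were above both controls, by log2 0.18 (0.14 to 0.23), 0.06 (0.01 to 0.11) and 0.14 (0.10 to 0.19). In cells with at least 2500 genes and at most 10% mitochondrial UMIs the values were smaller, at 0.08 for HA, -0.02 for gRNA2 and 0.06 for gRNA3, so the sign turned with gRNA2. In a model over the 5 samples, which reads the 3 FOSL1 samples as the same effect seen in 2 systems, edgeR gave HSPA5 0.16 (SE 0.06, adjusted p = 0.15), which did not pass the threshold of 0.05.

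SDF2L1, a component of the BiP chaperone complex, was at 143 CPM in HA FOSL1 against 113 CPM in HA control. In the VPR system it was at 119 CPM in gRNA2 and 121 CPM in gRNA3 against 117 CPM in VPR control. HA FOSL1 stood apart from the other 4 samples, which lay between 113 and 121 CPM. SDF2L1 was the single one of the 27 members at 20 CPM that was at least 25% higher in any arm, with log2 0.34 (0.28 to 0.39) in the HA arm beside 0.03 (-0.02 to 0.08) and 0.05 (0.00 to 0.10) with the guides.

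DNAJB9 encodes ERdj4, a co-chaperone that brings unfolded protein to BiP and is a known target of spliced XBP1. It was at 25.5 CPM in HA FOSL1 against 21.0 CPM in HA control, and at 17.8 CPM in gRNA2 and 19.5 CPM in gRNA3 against 21.1 CPM in VPR control. HA FOSL1 lay above both controls and both guides below them, at log2 0.27 (0.16 to 0.39), -0.24 (-0.37 to -0.11) and -0.11 (-0.22 to -0.00).

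CANX encodes calnexin, the membrane-bound lectin chaperone of glycoproteins. It was at 287 CPM in HA FOSL1 against 336 CPM in HA control, and at 323 CPM in gRNA2 and 322 CPM in gRNA3 against 336 CPM in VPR control. It was the chaperone furthest below its control in the HA arm (-0.23, -0.26 to -0.20) and was close to it with the guides (-0.06 with each). CALR, its soluble partner calreticulin, went the other way, at 639 CPM in HA FOSL1 against 623 CPM in HA control, and at 669 CPM in gRNA2 and 652 CPM in gRNA3 against 627 CPM in VPR control.

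The remaining chaperones had log2 ratios between -0.17 and 0.11 in every arm. They were HSP90B1, the Hsp90 of the ER, the disulfide isomerases PDIA3, PDIA4 and PDIA6, the co-chaperones DNAJB11 and DNAJC3, the secreted ER proteins MANF and CRELD2, and HYOU1, the exchange factor of BiP. HYOU1 was lowest with gRNA3 (-0.17, -0.26 to -0.07) and DNAJC3, which also inhibits PERK, was lower with both guides (-0.12 and -0.14) but not in the HA arm (-0.01). The edgeR model called 0 of the 14 chaperones, and DESeq2 also called 0.

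The second group was lower in sum in every FOSL1 sample. Its summed level was 254 CPM in HA FOSL1 against 305 CPM in HA control, and 241 CPM in gRNA2 and 240.3 CPM in gRNA3 against 298 CPM in VPR control, a log2 ratio of -0.27 (-0.30 to -0.23), -0.31 (-0.34 to -0.27) and -0.31 (-0.34 to -0.28). Between the controls it was -0.03 (-0.06 to 0.00). HERPUD1 and XBP1 carried most of that level and of its fall, and only these and ATF6 reached a mean of 20 CPM. Of the 8 genes, 3 lay above the control in the HA arm and 1 with either guide. The median over all 8 genes was smaller, at -0.11 for HA, -0.06 for gRNA2 and -0.12 for gRNA3.

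HERPUD1 was the one member that the model over the 5 samples called, of 36 tested, where 1.61% of 15439 genes were called. The gene lies on chromosome 16 at 56932142 to 56944864 in GRCh38.p14, and its protein sits in the ER membrane, where it helps the ubiquitin ligase of ER-associated degradation. HERPUD1 was at 73.3 CPM in HA FOSL1 against 101 CPM in HA control, and at 80.3 CPM in gRNA2 and 82.1 CPM in gRNA3 against 104 CPM in VPR control. The 3 FOSL1 samples were all below the controls, which lay close together, with log2 ratios of -0.46 (-0.53 to -0.40), -0.36 (-0.42 to -0.30) and -0.33 (-0.38 to -0.28) and 0.03 (-0.03 to 0.09) between the controls. HERPUD1 fell by 0.38 on the log2 scale (SE 0.05, edgeR adjusted p = 0.045 with Benjamini-Hochberg adjustment over all genes), lower in 3 of 3 arms. The call sat near the threshold. Without gRNA2 the adjusted p was 0.17 and without gRNA3 it was 0.19, and in both of these fits edgeR called 0 of all genes (2614 and 2371 at an unadjusted p under 0.05). With the other settings that kept all 5 samples, the adjusted p of HERPUD1 lay between 0.00047 with DESeq2 and 0.047 with edgeR on DESeq2 size factors.

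XBP1, on chromosome 22 at 28794560 to 28800569, encodes the factor whose spliced form acts in the IRE1 arm. It was at 99.5 CPM in HA FOSL1 against 121 CPM in HA control, and at 80.0 CPM in gRNA2 and 79.5 CPM in gRNA3 against 111 CPM in VPR control. The guides were further below their control than HA FOSL1 was below its own, with log2 -0.28 (-0.34 to -0.22) in the HA arm, -0.47 (-0.53 to -0.41) with gRNA2 and -0.48 (-0.53 to -0.43) with gRNA3. The controls differed as well, with VPR control below HA control by log2 -0.12 (-0.17 to -0.07). XBP1 missed the threshold in the edgeR model (-0.37, SE 0.06, adjusted p = 0.061), while DESeq2 on the same counts gave -0.36 with an adjusted p of 0.0032. Spliced and unspliced XBP1 RNA were counted as 1 gene.

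Settings that bear on depth and mitochondrial share gave these values for HERPUD1 and XBP1. In cells with 10000 to 25000 UMIs HERPUD1 was at -0.42 for HA, -0.33 for gRNA2 and -0.28 for gRNA3, and XBP1 at -0.28, -0.53 and -0.53. Scaled to UMIs outside mitochondrial genes, HERPUD1 was at -0.49, -0.38 and -0.35 and XBP1 at -0.31, -0.49 and -0.50. Both settings were chosen after the data had been seen. In cells with at least 2500 genes and at most 10% mitochondrial UMIs, HERPUD1 was at -0.45, -0.38 and -0.26, and XBP1 was closer to its control at -0.17, -0.34 and -0.31. The sign was the same in all of these.

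The promoters of HERPUD1 and XBP1 are shown because HERPUD1 is the member that the model called and XBP1 lay furthest below its control with both guides, and because each holds an element through which ATF6 and XBP1 are known to act. The sequences are the 250 bases before a RefSeq start in GRCh38.p14, given 5′ to 3′ on the strand of the gene. For XBP1 a second RefSeq promoter (chr22:28800078-28800327, minus strand) held no motif match and is not shown. Capitals mark motif matches, in the order in which they come a CARE on the other strand and an ERSE-II for HERPUD1 (chr16:56931892-56932141, plus strand), and an ERSE for XBP1 (chr22:28800570-28800819, minus strand).
HERPUD1: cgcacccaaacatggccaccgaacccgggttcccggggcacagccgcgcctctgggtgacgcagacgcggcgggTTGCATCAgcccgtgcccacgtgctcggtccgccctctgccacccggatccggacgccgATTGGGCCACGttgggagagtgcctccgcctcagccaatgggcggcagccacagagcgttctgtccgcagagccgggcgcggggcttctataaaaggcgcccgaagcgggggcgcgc
XBP1: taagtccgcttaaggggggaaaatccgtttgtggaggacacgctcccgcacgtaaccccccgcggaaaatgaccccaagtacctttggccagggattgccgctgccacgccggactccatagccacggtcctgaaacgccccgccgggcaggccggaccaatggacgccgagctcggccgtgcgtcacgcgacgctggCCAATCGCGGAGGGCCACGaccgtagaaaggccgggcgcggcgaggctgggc
The letters searched, on both strands, were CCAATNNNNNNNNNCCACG for the ER stress response element ERSE, ATTGGNCCACG for ERSE-II, TGACGTGG for UPRE, the unfolded protein response element, TGATGNAA for CARE, the element bound by C/EBP-ATF pairs such as those of ATF4, TGACTCA for AP-1 and TGACGTCA for CRE, the cyclic AMP element. RefSeq promoters, from 250 bases before to 50 after the start, were matched for 33 of the 36 genes.

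ERSE was found in 7 of the 33 members with a promoter and in 0.092% of 27305 human genes with promoters of the same length. Of the 25 genes in all that hold it, 7 were members. Of 13 chaperones with a promoter 6 hold it, and their matches are shown because the even chaperone group and the lower XBP1 carry the same element. Capitals mark the match, with 6 bases on each side.
PDIA6 (chr2:10812847-10812877): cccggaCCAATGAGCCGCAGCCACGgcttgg
CANX (chr5:179698772-179698802): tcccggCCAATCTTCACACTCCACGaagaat
HSPA5 (chr9:125241385-125241415): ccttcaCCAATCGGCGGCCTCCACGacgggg
HSP90B1 (chr12:103930210-103930240): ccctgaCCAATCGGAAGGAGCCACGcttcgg
HSP90B1, second match (chr12:103930315-103930345): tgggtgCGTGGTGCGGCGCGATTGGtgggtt
CALR (chr19:12938378-12938408): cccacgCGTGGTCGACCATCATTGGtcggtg
CRELD2 (chr22:49918548-49918578): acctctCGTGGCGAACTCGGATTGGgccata
The match starts 66 bases before the start of HSPA5 and 52 bases before that of XBP1, and those of CALR and CRELD2 and the second one of HSP90B1 lie on the other strand. Genes with an ERSE stood on both sides of their controls, with HSPA5 at 0.18, 0.06 and 0.14, CANX at -0.23, -0.06 and -0.06 and XBP1 at -0.28, -0.47 and -0.48, in the order HA, gRNA2, gRNA3.

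ERSE-II was found in HERPUD1, HYOU1 and SDF2L1, and in 0.07% of all genes with a promoter. The sites of the last 2 genes are shown beside that of HERPUD1 because the 3 genes differed in their response. HYOU1 has a second copy, and its first one shares 5 bases with a UPRE (0.927% of genes).
HYOU1 (chr11:119057374-119057396): ccgtgaCGTGGTCCAATcccagg
SDF2L1 (chr22:21642108-21642130): cggaagCGTGGACCAATcaaaac
HERPUD1 was lower in all 3 arms, HYOU1 lay at -0.10, -0.09 and -0.17, and SDF2L1 lay above its control in the HA arm. A CARE was found in ASNS, CEBPG, CHAC1 and HERPUD1 (4.457% of genes), an AP-1 match in DDIT3 (6.047%) and a CRE in PPP1R15A (2.249%). A match is a description of these letters and was not tested as a site.

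The other sensor and degradation genes were counted thinly. SEL1L, the adaptor of the HRD1 ligase, was at 15.1 CPM in HA FOSL1 against 17.8 CPM in HA control, and at 17.5 CPM in gRNA2 and 17.0 CPM in gRNA3 against 17.9 CPM in VPR control. SYVN1, the ligase HRD1 itself, lay between 15.8 and 18 CPM in all samples, and EDEM1, which hands glycoproteins over for degradation, between 5.03 and 6.23 CPM. Of the sensors, ATF6 was between 33.0 and 35.5 CPM, ERN1 between 3.24 and 3.97 CPM and EIF2AK3 between 3.32 and 4.21 CPM. For each of these 6 genes the interval included 0 in at least 2 of the 3 arms. The intervals without 0 were those of SEL1L and EIF2AK3 (below) and EDEM1 (above) in the HA arm, and of SYVN1 (below) with gRNA3. edgeR called none of these 6 genes (0 at an unadjusted p under 0.05). The interval of ERN1 ran from -0.13 to 0.35 in the HA arm, and differences inside it were not detectable at this depth.

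**Figure D3:**
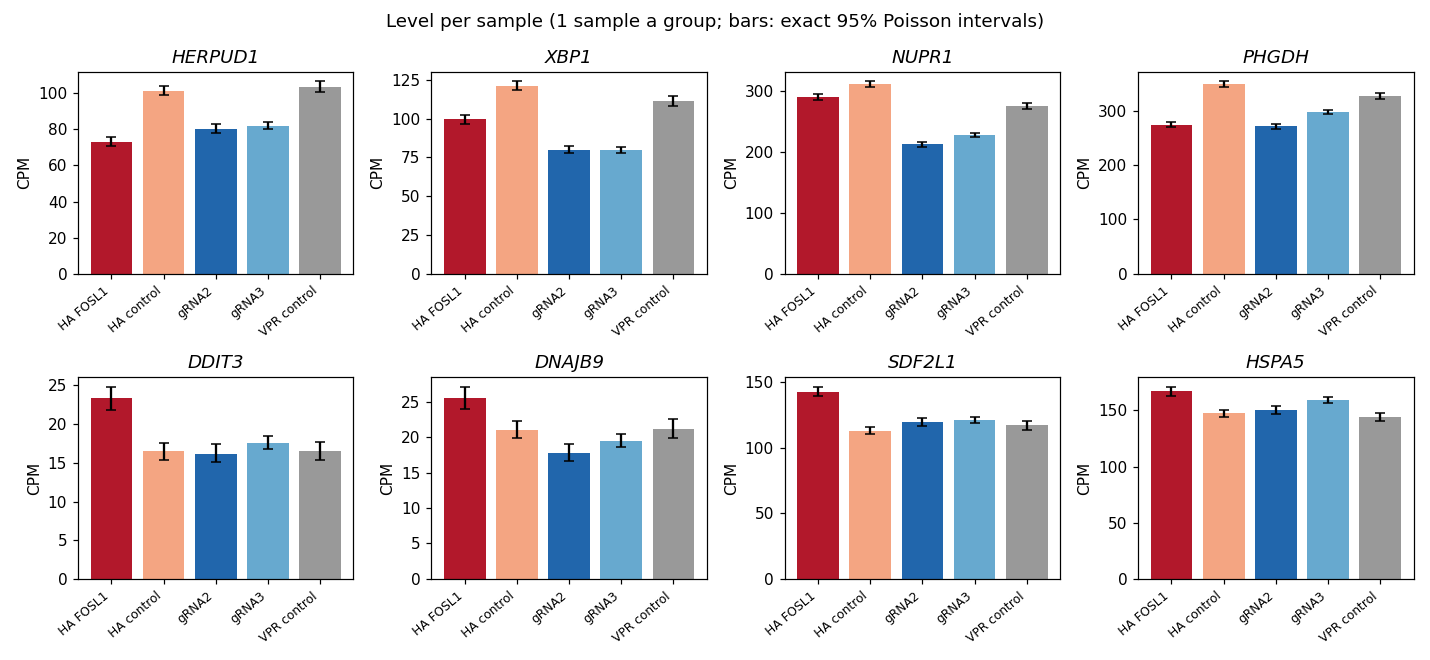
Level in CPM (vertical axes, starting at 0) of HERPUD1, XBP1, NUPR1, PHGDH, DDIT3, DNAJB9, SDF2L1 and HSPA5 in each of the 5 samples, 1 sample a group, with exact 95% Poisson intervals of counting error. HERPUD1 is lower in the 3 FOSL1 samples than in both controls, and DDIT3 and SDF2L1 are high in HA FOSL1 alone.

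The ATF4 branch was lower in sum in each arm, but the controls differed by about as much. The 14 genes summed to 1746 CPM in HA FOSL1 against 1899.8 CPM in HA control, and to 1603 CPM in gRNA2 and 1697 CPM in gRNA3 against 1765 CPM in VPR control. The log2 ratios were -0.12 (-0.14 to -0.11) in the HA arm, -0.14 (-0.15 to -0.12) for gRNA2 and -0.06 (-0.07 to -0.04) for gRNA3, beside -0.11 (-0.12 to -0.09) between VPR control and HA control. VPR control was below HA control for 12 of the 14 genes, and gRNA3 was above gRNA2 for 13 of the 14 (sum 0.08 higher). Set against the control of the other system, chosen after the data had been seen, the median over the 10 genes at 20 CPM was 0.09 for HA, -0.17 for gRNA2 and -0.11 for gRNA3, against -0.07, -0.06 and -0.02 with the matched control. The sign in the HA arm therefore depended on the control.

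Among the transcription factors, ATF4 itself hardly differed. It was at 408 CPM in HA FOSL1 against 433 CPM in HA control, and at 399.7 CPM in gRNA2 and 412 CPM in gRNA3 against 406 CPM in VPR control. CEBPB, a C/EBP factor that pairs with ATF4, was at 274 CPM in HA FOSL1 against 314 CPM in HA control, and at 289 CPM in gRNA2 and 290.0 CPM in gRNA3 against 309 CPM in VPR control. CEBPG, another partner of ATF4, lay on the other side, at 67.4 CPM in HA FOSL1 against 58.5 CPM in HA control, and at 60.3 CPM in gRNA2 and 63.9 CPM in gRNA3 against 57.5 CPM in VPR control. For both C/EBP genes the 3 FOSL1 samples did not overlap the controls, and neither passed the edgeR model (CEBPB -0.12, adjusted p = 0.18, and CEBPG 0.17, adjusted p = 0.15).

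NUPR1, a small stress-induced chromatin protein, was the ATF4-branch gene furthest below its control with gRNA2. It was at 290.2 CPM in HA FOSL1 against 312 CPM in HA control, and at 213 CPM in gRNA2 and 228 CPM in gRNA3 against 276 CPM in VPR control. Both guides lay below all other samples, while HA FOSL1 lay between the controls. The ratio was -0.38 (-0.41 to -0.34) with gRNA2, -0.27 (-0.31 to -0.24) with gRNA3 and -0.10 (-0.14 to -0.07) in the HA arm, and -0.17 between the controls. The edgeR model gave -0.21 (SE 0.07, adjusted p = 0.16).

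DDIT3 encodes CHOP, the factor linked to cell death under lasting ER stress, and was below the 20 CPM mean. It was at 23.3 CPM in HA FOSL1 against 16.5 CPM in HA control, and at 16.2 CPM in gRNA2 and 17.6 CPM in gRNA3 against 16.5 CPM in VPR control. HA FOSL1 was the one sample that stood apart, at log2 0.48 (0.35 to 0.60) beside -0.02 (-0.16 to 0.11) and 0.09 (-0.03 to 0.21) with the guides. Free RNA in empty droplets of the same pool held DDIT3 at 23.2 CPM, SDF2L1 at 131 CPM and DNAJB9 at 24.6 CPM. With 5% of each sample's UMIs subtracted as such free RNA, the ratios in the order HA, gRNA2, gRNA3 were 0.51, -0.03 and 0.10 for DDIT3, 0.35, 0.03 and 0.05 for SDF2L1 and 0.29, -0.25 and -0.12 for DNAJB9.

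PPP1R15A encodes GADD34, the phosphatase subunit that restores translation. It was at 32.1 CPM in HA FOSL1 against 26.8 CPM in HA control, and at 29.2 CPM in gRNA2 and 25.3 CPM in gRNA3 against 28.0 CPM in VPR control. The 2 guides lay on either side of their control. TRIB3, a pseudokinase that damps ATF4 activity, was at 65.6 CPM in HA FOSL1 against 68.4 CPM in HA control, and at 60.6 CPM in gRNA2 and 62.5 CPM in gRNA3 against 60.5 CPM in VPR control, so the systems differed more than the arms.

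Of the metabolic targets, PHGDH, the first enzyme of serine synthesis, was lower in every arm. It was at 274 CPM in HA FOSL1 against 348 CPM in HA control, and at 271 CPM in gRNA2 and 298 CPM in gRNA3 against 326 CPM in VPR control, with ratios of -0.35 (-0.38 to -0.31), -0.27 (-0.30 to -0.23) and -0.13 (-0.16 to -0.10). The 3 FOSL1 samples were below both controls, and the edgeR model gave -0.24 (SE 0.06, adjusted p = 0.11). The next enzyme of that pathway did not follow, since PSAT1 was at 139 CPM in HA FOSL1 against 137 CPM in HA control, and at 121 CPM in gRNA2 and 137 CPM in gRNA3 against 122 CPM in VPR control.

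SHMT2, which turns serine into glycine in mitochondria, was at 90.7 CPM in HA FOSL1 against 94.0 CPM in HA control, and at 76.4 CPM in gRNA2 and 87.5 CPM in gRNA3 against 82.7 CPM in VPR control. ASNS, asparagine synthetase, was at 51.1 CPM in HA FOSL1 against 59.8 CPM in HA control, and at 41.9 CPM in gRNA2 and 49.9 CPM in gRNA3 against 51.9 CPM in VPR control. ASNS also differed most of the members between the guides (0.25 higher in gRNA3) and between the controls among those at 20 CPM (-0.20 in VPR control). VLDLR, a lipoprotein receptor known as an ATF4 target, was low throughout, at 11.8 CPM in HA FOSL1 against 15.1 CPM in HA control, and at 12.0 CPM in gRNA2 and 12.3 CPM in gRNA3 against 14.8 CPM in VPR control. The edgeR model gave VLDLR -0.29 (SE 0.07, adjusted p = 0.091).

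The last 2 targets were near the floor of the data. CHAC1, which degrades glutathione, was at 7.37 CPM in HA FOSL1 against 7.17 CPM in HA control, and at 5.29 CPM in gRNA2 and 5.61 CPM in gRNA3 against 5.67 CPM in VPR control, and SESN2, a leucine-sensing stress protein, was at 10.7 CPM in HA FOSL1 and between 7.35 and 8.47 CPM in the other 4 samples. In the edgeR model 8 of the 36 members had an unadjusted p under 0.05, 2 higher (HSPA5 and CEBPG) and 6 lower (HERPUD1, XBP1, VLDLR, PHGDH, NUPR1 and CEBPB). Of all 15439 genes, 4020 did, so the members did not stand out from all genes by this count. Counts were also simulated with the spread between the 2 controls and with the same effect in all 3 FOSL1 samples. On these the model recovered 39 of 50 genes changed by 0.25 on the log2 scale and 50 of 50 changed by 0.5. Effects that differ between the arms were not simulated for this model, so recovery in the real samples can be lower. The p-values of the model rest on how far the 2 guides differ and how far the HA effect differs from theirs. edgeR also draws on the spread of all genes, and no separate cultures stand behind these p-values.

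Whether the HA effect differed from that of the guides was tested by the interaction of system and FOSL1 state. It called 3 of the 36 members, all with a higher value in the HA system, where edgeR called 12.2% of 16071 genes. DDIT3 differed by 0.48 (SE 0.12, adjusted p = 0.019), DNAJB9 by 0.48 (SE 0.11, adjusted p = 0.016) and SDF2L1 by 0.32 (SE 0.07, adjusted p = 0.012), each as the log2 effect in HA minus that of the 2 guides. XBP1 (0.22, adjusted p = 0.070), NUPR1 (0.24, adjusted p = 0.073), PPP1R15A (0.33, adjusted p = 0.096) and SESN2 (0.40, adjusted p = 0.11) had smaller or less certain differences that did not pass. The share of members called, 3 of 36, was below that of all genes. The test has 1 residual degree of freedom, given by the 2 guides. On simulated counts it recovered 5 of 50 genes whose effects differed by 0.25 and 35 of 50 that differed by 0.5, so differences of this size can be missed, and DESeq2 called 0 members (2 at an unadjusted p under 0.05).

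**Figure D4:**
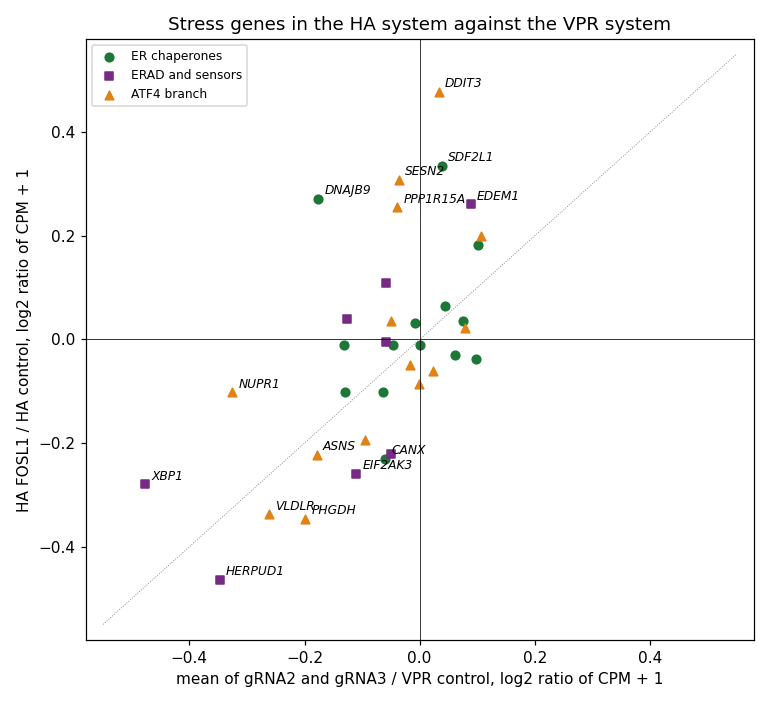
Log2 ratio of CPM + 1 of the 36 genes in HA FOSL1 over HA control (vertical axis) against the mean of gRNA2 and gRNA3 over VPR control (horizontal axis), with symbols by role and a dotted line of equal values. DDIT3, SDF2L1 and DNAJB9 lie above the line and HERPUD1 and XBP1 at the lower left. Points far from the line are named, together with those far from 0 on either axis.

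At equal depth per cell, HERPUD1 and XBP1 were detected in a smaller share of the cells of each FOSL1 sample than of its control. Such shares fall with the mean level and do not show how a difference is spread over cells. Cells were thinned to 5000 UMIs each, which left out 5 to 13 cells a sample. HERPUD1 was then detected in 29.7% of cells of HA FOSL1 (exact binomial interval 27.6 to 31.9) against 39.8% in HA control (38.1 to 41.4), and in 32% in gRNA2 (30.2 to 33.9) and 33.6% in gRNA3 (32.2 to 35.0) against 39.9% in VPR control (38.0 to 41.8). Without thinning the shares were 70.4% in HA FOSL1 against 73.8% in HA control, and 68.6% in gRNA2 and 70.8% in gRNA3 against 74.6% in VPR control. XBP1 was detected in 38.2% of thinned cells of HA FOSL1 (36 to 40.5) against 42.4% in HA control (40.7 to 44.1), and in 31.1% in gRNA2 (29.3 to 33.0) and 31.2% in gRNA3 (29.8 to 32.6) against 39.6% in VPR control (37.7 to 41.5). Unthinned, XBP1 went the other way in the HA arm, with 81.9% in HA FOSL1 against 78.1% in HA control, and stayed lower with the guides at 69.5% in gRNA2 and 70.7% in gRNA3 against 76.0% in VPR control. All cells are of 1 line, so no cell type that lacks these genes was there to give a background share, and these intervals cover counting error only.

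ATF4-branch RNA was more uneven between cells of HA FOSL1 than in any other sample. The variance over the mean of the summed UMIs of the 14 genes in thinned cells was 2.14 in HA FOSL1 against 1.59 in HA control, and 1.59 in gRNA2 and 1.57 in gRNA3 against 1.57 in VPR control. It was 2.17 in HA FOSL1 without the 10% of cells with the most UMIs and 2.20 in cells with 10000 to 25000 UMIs, values as large as with all cells. The share of cells with 3 or fewer ATF4-branch UMIs was 7.32% in HA FOSL1 against 3.42% in HA control, and 7.21% in gRNA2 and 6.30% in gRNA3 against 4.41% in VPR control. The share with 18 or more was 3.41% in HA FOSL1 against 3.18% in HA control, and 1.66% in gRNA2 and 1.77% in gRNA3 against 2.01% in VPR control. HA FOSL1 thus had the low tail of the guides and the high tail of its own control.

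**Figure D5:**
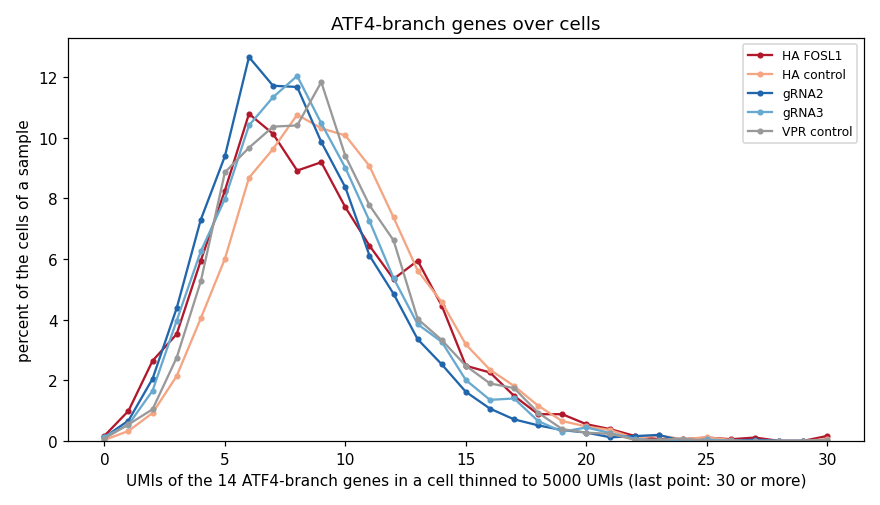
Percent of the cells of each sample (vertical axis) by the UMIs of the 14 ATF4-branch genes in a cell thinned to 5000 UMIs (horizontal axis, the last point holding 30 or more). HA FOSL1 has 7.32% of cells at 3 or fewer UMIs and 3.41% at 18 or more, a wider curve than HA control, gRNA2, gRNA3 and VPR control.

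NUPR1 showed this unevenness most plainly by itself, with a variance over mean of 1.63 in HA FOSL1 against 1.27 in HA control, and 1.35 in gRNA2 and 1.30 in gRNA3 against 1.22 in VPR control. Over the 5747 genes at 20 CPM the median of this ratio was 1.04 in HA FOSL1 and 1.03 in the 4 other samples, and its 95th percentile was 1.40 in HA FOSL1 against 1.31 in HA control, and 1.30 in gRNA2 and 1.29 in gRNA3 against 1.29 in VPR control. The upper range of all genes was thus also more uneven in HA FOSL1, and whether the ATF4 branch exceeds that was not tested. The ER chaperone sum was also most uneven in HA FOSL1, at 1.92 against 1.70 in HA control, and 1.73 in gRNA2 and 1.65 in gRNA3 against 1.79 in VPR control.

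Correlations between members over thinned cells were weak and are a description only. Of the 630 pairs 7 had a mean Pearson r over 0.1 across the 5 samples, and the median was 0.0057. The highest was NUPR1 with PHGDH, at 0.23 in HA FOSL1 (1818 cells) and 0.13 in HA control (3367 cells), and at 0.14 in gRNA2 and gRNA3 and 0.10 in VPR control. HSP90B1 with CALR followed at a mean of 0.13, then NUPR1 with ASNS and PSAT1 with PHGDH at 0.12 each. Chaperone and ATF4-branch sums had an r between -0.12 and -0.06 in every sample. The points are cells of 1 library, brought to 1 fixed depth.

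Other genes of the same pathways were read from 6 lists. In the model over the 5 samples edgeR called 0 of 17 other ER folding genes, 0 of 16 other degradation genes, 0 of 20 translocation and glycosylation genes, 0 of 16 stress signalling genes, 0 of 12 aminoacyl-tRNA synthetase genes and 0 of 25 other ATF4 targets. Among all 15439 genes the share called was 1.61%. The medians of these lists lay between -0.09 and 0.08 in the HA arm and between -0.07 and 0.07 with the guides, among genes at 20 CPM. In the test of the difference between systems edgeR called 2, 1, 1, 1, 0 and 3 of them with a higher value in HA, and 1 synthetase and 3 ATF4 targets with a lower one. Among all 16071 genes 12.2% were called, 1345 higher and 613 lower, so such calls were not particular to these lists. The called genes of the lists were ERO1A, KDELR2, UBE2J1, SSR3, EIF2AK2, STC2, SLC38A2 and FAM129A on the higher side, and LARS, ATF5, SLC1A5 and PSPH on the lower.

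ERO1A, the oxidase that recharges disulfide isomerases, was at 40.1 CPM in HA FOSL1 against 19.8 CPM in HA control, and at 25.3 CPM in gRNA2 and 25.1 CPM in gRNA3 against 21.7 CPM in VPR control. The difference between systems was 0.82 (adjusted p = 0.00017). UBE2J1, the ubiquitin-conjugating enzyme of the ER membrane, was at 137 CPM in HA FOSL1 against 89.7 CPM in HA control, and at 101 CPM in gRNA2 and 97.6 CPM in gRNA3 against 103 CPM in VPR control (difference 0.68, adjusted p = 0.00011). STC2, a secreted glycoprotein induced by ATF4, was at 33.8 CPM in HA FOSL1 against 16.5 CPM in HA control, and at 15.1 CPM in gRNA2 and 18.5 CPM in gRNA3 against 12.2 CPM in VPR control (difference 0.58, adjusted p = 0.038). In these 3 genes the HA FOSL1 sample was the highest of the 5, as it was for DDIT3, SDF2L1 and DNAJB9. All of them were called with a higher value in HA, so this order follows in part from that call.

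The amino acid genes among the ATF4 targets went to both sides in the HA arm. SLC38A2, a carrier of neutral amino acids, was at 121 CPM in HA FOSL1 against 97.9 CPM in HA control, whereas SLC1A5, the glutamine carrier, was at 88.2 CPM in HA FOSL1 against 126 CPM in HA control. PSPH, the last enzyme of serine synthesis, was at 147 CPM in HA FOSL1 against 201 CPM in HA control, and at 148 CPM in gRNA2 and 156 CPM in gRNA3 against 166 CPM in VPR control. PSPH and PHGDH were thus both lower in every arm, with PSAT1 between them in the pathway close to its control or above it. NUPR2, a relative of NUPR1, was at 55.8 CPM in HA FOSL1 against 86.7 CPM in HA control, and at 80.9 CPM in gRNA2 and 71.9 CPM in gRNA3 against 95.9 CPM in VPR control, which did not pass the model (-0.44, edgeR adjusted p = 0.075).

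The other pathway genes named by the rule did not pass either test. SSR2, a subunit of the translocon-associated complex, was at 209.7 CPM in HA FOSL1 against 247 CPM in HA control, and at 179 CPM in gRNA2 and 186 CPM in gRNA3 against 214 CPM in VPR control (model -0.21, edgeR adjusted p = 0.081). EIF2AK4, the amino acid sensing kinase GCN2, was at 50.7 CPM in HA FOSL1 against 37.7 CPM in HA control, and at 41.9 CPM in gRNA2 and 46.2 CPM in gRNA3 against 36.6 CPM in VPR control (model 0.36, adjusted p = 0.079). SIL1, DNAJC10, OS9 and EDEM3 were the lowest of their lists, with a lowest ratio of -0.29 for OS9 in the HA arm. SRPRB, SPCS3, SSR4, ATF6B, EIF2B5, EIF2S1, EPRS, WARS, GARS, SLC7A5 and EIF4EBP1 had ratios between -0.34 and 0.35, and edgeR called none of them in the model or the test of the difference between systems.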

How the data were processed

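Single-cell 3' RNA counts and hashtag calls of 1 pooled library were used. The authors' counts are raw UMI counts per gene and barcode from Cell Ranger 4, per the file header, on hg38, per the submitters' processing notes. The authors also deposited a hashtag assignment for each of 21228 called cells with its probability, a fraction from 0 to 1. No source used here names the tool for that step. Cells called multiplets (5181), unassigned (402) or blank (274) by the authors were left out and no other doublet caller was run. The matrix names 2 hashtags by gain of function only, and they were taken as the HA control and HA FOSL1 samples because the other 3 name the VPR samples. Of 15371 assigned cells, 14642 with at least 1500 genes and at most 20% mitochondrial UMIs were kept. UMIs were summed per sample and scaled to CPM, and fold changes are on the log2(CPM + 1) scale, with exact conditional binomial intervals at 95%. UMIs of 1 library are not repeats, so intervals cover counting error only.

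Ratios of single samples have no p-value. edgeR 4.0.16 quasi-likelihood tests with TMM factors, filterByExpr and Benjamini-Hochberg adjustment at 0.05 were run over all genes of the 5 samples, with 2 residual degrees of freedom for the shared effect and 1 for the difference between systems. DESeq2 1.42.0, with its size factors, other filters, other cells and leaving out each sample were the alternatives. Both the models and the intervals were tested on simulated data, where the intervals covered 94.7% of 5547 unchanged genes. The members, lists and tests were chosen with earlier results of these data known. Named genes were all 36 members and FOSL1. Of each other pathway list the 2 highest and 2 lowest at 20 CPM by mean ratio were named. Any gene of these lists that an edgeR model called was named as well. The cell type markers, SEC61G, SEC61B and CREB3L2 were named outside this rule. A gene that this rule names from the degradation list is not reported here. Identifiers follow the deposited table, and positions and promoters RefSeq on GRCh38.p14. Promoters of SHMT2, NUPR1 and PDIA3 were not used here.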

Additional observations from a re-analysis of the deposited data

Results flagged for a closer look

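In 3 of the 36 members the effect of FOSL1 differed between the HA system and the 2 guides by edgeR's test of the difference itself. The test called 12.2% of all 16071 genes, a larger share than of the members. DNAJB9 differed by 0.4792 on the log2 scale, with 25.5 CPM in HA FOSL1 against 21.0 CPM in HA control, and 17.8 CPM in gRNA2 and 19.5 CPM in gRNA3 against 21.1 CPM in VPR control. SDF2L1 differed by 0.3199, and DDIT3 by 0.4798. All 3 were higher in HA FOSL1 than in each of the other 4 samples, an order that follows in part from the call. The test rests on 1 residual degree of freedom, and DESeq2 gave adjusted p-values of 0.65 for DNAJB9, 0.19 for SDF2L1 and 0.73 for DDIT3, so the calls depended on the tool.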

How the results depend on the processing

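No alternative turned the sign of a called gene. No paired analysis was possible because every group has 1 sample and no replicate number is shared by design. The median ratio of all genes moved by less than 0.1 in every scaling.

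Members past the smaller size, 25% higher or 20% lower, numbered 3 for HA, 3 for gRNA2 and 2 for gRNA3, of 27 counted. Of all 5747 genes, 13.2% were past it on the higher side and 9.2% on the lower in the HA arm. These shares were 3.24% and 2.4% with gRNA2, and 3.38% and 3.1% with gRNA3. For the settings below, the shares of all genes were not computed, so the member counts have no such background. The gRNA3 count was 1 with a pseudocount of 5 CPM, TMM factors, DESeq2 size factors, the mean of per-cell CPM or cells with 10000 to 25000 UMIs, and 0 in cells with at least 2500 genes and at most 10% mitochondrial UMIs. The HA count was 5 with genes at 5 CPM or with no filter, which let in DDIT3 and VLDLR. With the control of the other system it was 1 in the HA arm and 5 with gRNA2, and 1 member, XBP1, passed 1.5-fold with gRNA2 and 1 with gRNA3.

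The median ratio of the degradation and sensor genes over 3 genes was -0.2800 for HA, -0.3631 for gRNA2 and -0.3311 for gRNA3. It was -0.1132, -0.0776 and -0.1207 with genes at 5 CPM and -0.1132, -0.0603 and -0.1238 with no filter, as more low genes entered. In the stricter cells it was -0.1671 in the HA arm and -0.2638 with gRNA3, in cells with 10000 to 25000 UMIs -0.2763 with gRNA3, and with the other control -0.1612 in the HA arm. The chaperone median in the stricter cells was -0.0585 in the HA arm and -0.0655 with gRNA3, and -0.0411 in the HA arm scaled to UMIs outside mitochondrial genes. The ATF4-branch median of the HA arm was -0.0214 with DESeq2 size factors and 0.0926 with the other control, and with that control -0.1750 with gRNA2 and -0.1092 with gRNA3. The cause of these shifts was not tested.

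The model over the 5 samples called 1 member, HERPUD1. It called 2, HERPUD1 and XBP1, with no filter (1984 of 23639 genes), with DESeq2 (1117 of 23639) and without the 10% of cells with the most UMIs (375 of 15052). Leaving out 1 sample gave 0 to 13 called members, namely 0 without gRNA2 or without gRNA3, 5 without HA control, 3 without HA FOSL1 and 13 without VPR control. Fits without a control or without HA FOSL1 compare 1 system only, and the lone sample is assumed to vary like the others, so only effects are given for them. The difference between systems called 3 members with edgeR, where 1958 of 16071 genes were called. It called 4 with size factors (2110 of 16071 genes) or no filter (2480 of 23639). With DESeq2 it called 0 (450 of 23639 genes, and 2 members at an unadjusted p under 0.05).

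Genes under 20 CPM limit the reading of ERN1, EIF2AK3, EDEM1, CHAC1 and SESN2, and with 1 sample a group no value speaks to the spread between cultures.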

Other observations

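SEC61G, a subunit of the ER translocon, was at 15446 CPM in HA FOSL1 and 13812 CPM in HA control, and at 13892 CPM in gRNA2 and 13853 CPM in gRNA3 and 13866 CPM in VPR control. SEC61B, another subunit of the same complex, was between 463 and 497 CPM. On chromosome 7 of GRCh38.p14, SEC61G lies 260 kb from EGFR, which was at 2365 CPM in HA FOSL1 and 1924 CPM in HA control, and at 2348 CPM in gRNA2, 2339 CPM in gRNA3 and 1829 CPM in VPR control.

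CREB3L2, an ER membrane factor of the ATF6 kind, was chosen after its values were seen. It was at 13.9 CPM in HA FOSL1 against 18.5 CPM in HA control, and at 10.8 CPM in gRNA2 and 10.6 CPM in gRNA3 against 18.1 CPM in VPR control. The ratios were -0.39 for HA, -0.69 for gRNA2 and -0.72 for gRNA3, and the edgeR model gave -0.59 with an adjusted p of 0.061, which did not pass.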
